A study of Rattus norvegicus with 20 samples.

Results

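The thiazide-sensitive sodium chloride cotransporter and the kinases and ubiquitin ligase parts that set its activity were followed in kidneys of rats given a calcineurin inhibitor. The genes are Slc12a3, which encodes the cotransporter, and 8 of its regulators: Wnk1, Wnk4, Stk39, Oxsr1, Klhl3, Cul3, Sgk1 and Nedd4l. They were found in the files by gene symbol and matched between tables by Ensembl identifier. All 9 were found among the 32545 genes of the cyclosporine A table, among the 32883 genes of the tacrolimus table and among the 32521 genes that both tables list. Each of the 9 passed the filter on low values in both tables.

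Whole kidneys of wild-type male Wistar rats, aged 10 to 12 weeks, were profiled by bulk RNA sequencing after 28 days of delivery by osmotic minipump. One comparison set 4 libraries from cyclosporine A against 4 from saline, and the other set 6 from tacrolimus (target trough 3.5 ng/ml) against 6 from its vehicle, 75% polyethylene glycol with 25% DMSO (DMSO/PEG). The labels number the libraries as replicates without naming animals, so p-values measure the spread between these libraries. Both drugs are immunosuppressants that inhibit the phosphatase calcineurin, and hypertension with retention of salt and potassium is a known side effect. Because the vehicles and the deposited tables differ as well as the drugs, these 3 cannot be told apart where the drugs are set side by side.

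The cotransporter sits in the apical membrane of the distal convoluted tubule, where it takes up sodium and chloride and is the target of thiazide diuretics. WNK kinases phosphorylate the kinases SPAK and OSR1 (genes Stk39 and Oxsr1), which in turn phosphorylate and activate the cotransporter. The adaptor KLHL3 and the scaffold CUL3 form a ubiquitin ligase that marks WNK kinases for degradation, and mutations of either, or of WNK1 or WNK4, cause familial hyperkalaemic hypertension. SGK1, a kinase induced by corticosteroids, phosphorylates the ubiquitin ligase NEDD4L and so relieves its restraint of sodium transporters. Most of this control acts on proteins and their phosphorylation, which RNA levels do not report.

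Expression is given in FPKM, a fragment count put on a per-length and per-depth basis, as deposited for tacrolimus. For cyclosporine A it is given in rescaled FPKM: the deposited FPKM divided by size factors that equalise the median gene ratio between libraries. Libraries held 30468799 to 34308987 assigned fragments for cyclosporine A and saline, and 31670202 to 39358485 for tacrolimus and DMSO/PEG. The mitochondrial share of those fragments was 49.7% to 68.6% with saline, 80.2% to 90.8% with cyclosporine A, 10.5% to 13.7% with DMSO/PEG and 10.8% to 15.9% with tacrolimus. Kidney markers were present in both tables, but in the cyclosporine A table Slc5a2, the glucose transporter of the early proximal tubule, was at 0.110 to 0.502 rescaled FPKM with saline. Podocyte genes were also low on that scale, with a summed level of 2.57 to 9.12 rescaled FPKM over 4 genes. Rescaled FPKM still counts mitochondrial fragments in its depth, so levels cannot be compared between the tables. With saline the mean of Slc12a3 was 9.75 rescaled FPKM but 38.9 FPKM when scaled to non-mitochondrial fragments. Differences between groups were tested with limma on log2(FPKM + 1), with Benjamini-Hochberg adjustment over all genes tested, and called at an adjusted p under 0.05.

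Promoter sequence was available for 8 of the 9 genes, all except Cul3, in a RefSeq table on the rat assembly GRCr8. The 250 bases before the annotated start are shown for the 3 genes called lower with tacrolimus. They are on the minus strand at chr19:10675051-10675300 for Slc12a3, on the minus strand at chr4:154926148-154926397 for Wnk1 and on the plus strand at chr17:6528237-6528486 for Klhl3. Capitals mark every match, on either strand, to 4 short motifs: GGAAA, the core bound by the calcineurin-dependent NFAT factors, AGAACA, a corticosteroid receptor half-site, TATAAA, the TATA box, and TGACG, a cyclic AMP response element half-site.
Slc12a3: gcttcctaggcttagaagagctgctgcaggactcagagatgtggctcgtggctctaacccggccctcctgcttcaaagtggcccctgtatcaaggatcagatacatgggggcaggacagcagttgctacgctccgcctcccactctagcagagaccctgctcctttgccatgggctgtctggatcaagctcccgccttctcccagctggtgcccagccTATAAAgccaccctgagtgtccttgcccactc
Wnk1: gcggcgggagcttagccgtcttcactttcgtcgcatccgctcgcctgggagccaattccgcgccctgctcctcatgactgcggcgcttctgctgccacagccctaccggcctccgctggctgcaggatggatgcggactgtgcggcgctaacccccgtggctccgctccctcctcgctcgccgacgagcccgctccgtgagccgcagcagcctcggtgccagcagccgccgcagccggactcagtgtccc
Klhl3: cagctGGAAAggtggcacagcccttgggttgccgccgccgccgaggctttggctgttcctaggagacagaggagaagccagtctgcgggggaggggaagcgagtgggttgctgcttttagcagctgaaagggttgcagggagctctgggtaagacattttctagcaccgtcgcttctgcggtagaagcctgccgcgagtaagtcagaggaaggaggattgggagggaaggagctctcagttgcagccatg

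Slc12a3 held 1 TATA box close to its start and no match to the other motifs. Wnk1 held no match to any of them, and Klhl3 held 1 NFAT core. Wnk1 has a single window, so a second start, such as the internal promoter described below, is not covered. Among all 33469 windows of the same length, 56.9% held the NFAT core, 17.5% the corticosteroid receptor half-site, 12.9% the TATA box and 18.2% the cyclic AMP response element half-site. The corticosteroid receptor half-site had no match in any window of the 8 genes, including the 3 windows listed for Sgk1. The NFAT core occurred in windows of 4 of the 8 genes, with 3 matches for Oxsr1, 2 in 1 of the 3 Sgk1 windows and 1 each for Stk39 and Klhl3. GC content was 59.2% for Slc12a3, 70.8% for Wnk1 and 59.6% for Klhl3, against a median of 51.2% over all windows. These matches describe the letters of the windows and nothing about binding.

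With tacrolimus, the cotransporter, one of its WNK kinases and the adaptor that marks WNK kinases for degradation all fell. Slc12a3, Wnk1 and Klhl3 were lower than with DMSO/PEG, to 42.6%, 55.8% and 47.9% of the vehicle mean, and the other 6 genes were not called. These 3 of 9 calls, all downward, stand beside 0.303% of the 15493 genes tested being called in either direction and 0.284% being called lower. The same 3 genes were the ones whose 2 groups did not overlap, a property of 0.975% of all genes tested. Voom on recovered fragments called the same 3 of 9, against 0.781% of all genes.

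Slc12a3 (chromosome 19, 11106033 to 11144641 on the rn6 assembly, minus strand) was measured at 93.3 FPKM in the lowest, 101 at the median and 108 in the highest of the 6 DMSO/PEG libraries. In the 6 tacrolimus libraries it was 29.5, 44.7 and 56.0 FPKM. Every tacrolimus library lay below every vehicle library, and the tacrolimus libraries were the more scattered, with a coefficient of variation of 21.5% against 5.41%. The means were 102 ± 5.50 and 43.3 ± 9.31 FPKM (SD, n = 6 each). The log2 fold change was -1.24 (SE 0.12, 95% interval -1.50 to -0.98, limma adjusted p = 1.59e-04), and between 5090 and 16888 fragments stood behind each value.

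Among the WNK kinases, Wnk1 (chromosome 4, 152452848 to 152578446, minus strand), the long kinase that phosphorylates SPAK and OSR1, was at 31.1, 34.2 and 37.3 FPKM (lowest, median, highest) with DMSO/PEG. With tacrolimus it was at 18.0, 18.8 and 20.8 FPKM. The 6 tacrolimus libraries lay within a narrow band well below the vehicle band. Wnk1 fell by 0.81 on the log2 scale (SE 0.06, 95% interval -0.93 to -0.68, limma adjusted p = 1.69e-05), the third smallest p of all 15493 genes tested. Wnk1 is also transcribed in the distal convoluted tubule from an internal promoter that gives a kidney-specific form without the kinase domain. One value per gene cannot separate that form from the full-length kinase.

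Wnk4 (chromosome 10, 89181165 to 89198213, plus strand), a WNK kinase enriched in the distal convoluted tubule, was the least abundant of the 9 genes with DMSO/PEG, at 3.90, 4.57 and 6.01 FPKM. With tacrolimus it was at 3.84, 4.60 and 5.54 FPKM, and the 2 groups covered nearly the same range. Its log2 fold change was -0.02 (95% interval -0.23 to 0.20, limma adjusted p = 0.988). Wnk4 overlaps an antisense gene, named Atp5md in the tacrolimus table and LOC100360002 in the other, with 4514 and 2599 fragments over all libraries. Whether the authors counted by strand is not given in the sources used here, so reads of the 2 genes may be mixed.

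The kinases below the WNKs moved little. Stk39 (chromosome 3, 54359451 to 54625414, minus strand), which encodes SPAK, was at 11.4, 13.2 and 15.1 FPKM with DMSO/PEG and at 10.6, 11.6 and 11.97 FPKM with tacrolimus. The groups overlapped through the lowest vehicle library, number 6. The log2 fold change was -0.19 (SE 0.06, 95% interval -0.32 to -0.06), with an unadjusted p of 0.00847 and a limma adjusted p of 0.333, so it was not called. Oxsr1 (chromosome 8, 127920349 to 128009951, minus strand), which encodes OSR1, was steadier still, at 14.5, 15.4 and 16.1 FPKM with DMSO/PEG and 13.5, 14.6 and 15.2 FPKM with tacrolimus. Its log2 fold change was -0.08 (95% interval -0.18 to 0.02, limma adjusted p = 0.686).

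Of the ubiquitin ligase pair, the adaptor fell and the scaffold was not called. Klhl3 (chromosome 17, 6935860 to 7029240, plus strand) was at 6.10, 6.94 and 8.17 FPKM with DMSO/PEG and at 2.85, 3.48 and 3.72 FPKM with tacrolimus. No tacrolimus library reached the lowest vehicle library. The log2 fold change was -0.88 (SE 0.08, 95% interval -1.05 to -0.70, limma adjusted p = 9.95e-05), with 133 to 407 fragments behind each value. Cul3 (chromosome 9, 86044485 to 86129329 in this table, minus strand), a scaffold shared by many ligases, was at 19.7, 20.9 and 23.7 FPKM with DMSO/PEG. With tacrolimus it was at 19.7, 21.4 and 27.5 FPKM, the highest in library 6, which also had the largest mitochondrial share of the table, 15.9%. The 2 groups overlapped along most of their range, with a log2 fold change of 0.06 (95% interval -0.10 to 0.21, limma adjusted p = 0.904).

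In the SGK1 and NEDD4L arm neither gene was called. Nedd4l (chromosome 18, 60392376 to 60719720, plus strand) was at 19.8, 20.4 and 22.8 FPKM with DMSO/PEG and at 19.0, 21.9 and 23.1 FPKM with tacrolimus. Its log2 fold change was 0.06 (95% interval -0.06 to 0.17, limma adjusted p = 0.854). Sgk1 (chromosome 1, 24185435 to 24302298, minus strand) varied more than any of the others between vehicle libraries, with a coefficient of variation of 74.7%.

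The 6 DMSO/PEG libraries, numbered 1 to 6, held Sgk1 at 99.5, 120, 29.5, 19.2, 59.5 and 19.7 FPKM. The 6 tacrolimus libraries held it at 37.3, 51.4, 33.6, 21.4, 35.0 and 36.5 FPKM. Vehicle libraries 1, 2 and 5 stood above every tacrolimus library, and vehicle libraries 4 and 6 stood below every one. The log2 fold change was -0.36 (SE 0.43, 95% interval -1.29 to 0.57, limma adjusted p = 0.90), an interval that includes a fall larger than that of Slc12a3. With 1 library left out at a time it ran from -0.60, without DMSO/PEG replicate 4, to -0.08, without DMSO/PEG replicate 2, and limma called it in none of these fits.

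**Figure D1:**
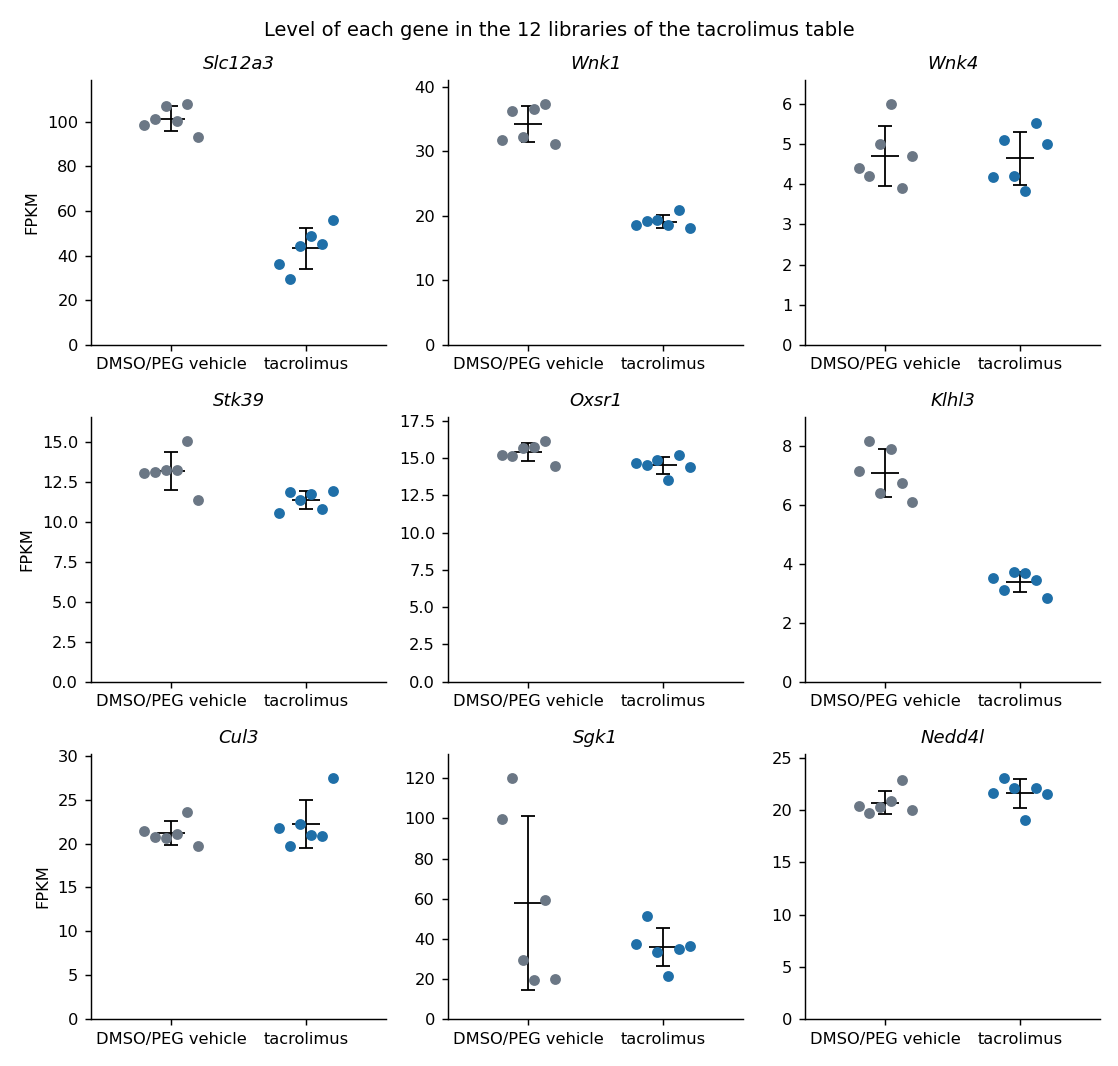
Level of the 9 genes in each library of the tacrolimus table. Each panel has its own axis in FPKM starting at 0, points are single libraries (6 per group, vehicle grey, tacrolimus blue), and bars give the mean and SD. The 2 groups stand apart for Slc12a3, Wnk1 and Klhl3 and overlap for the other 6 genes, with Sgk1 spread from 19.2 to 120 FPKM in the vehicle group.

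Of 5 listed genes that corticosteroids induce, 3 had the same vehicle libraries high and 2 did not. Tsc22d3, the glucocorticoid-induced leucine zipper, was at 86.8, 128, 45.6, 29.2, 77.1 and 26.0 FPKM in DMSO/PEG libraries 1 to 6. Per1, a clock gene that responds to corticosteroids, was at 31.5, 34.5, 13.6, 6.52, 18.8 and 6.69 FPKM in the same order. Zbtb16, a transcription factor gene that glucocorticoids induce, was at 1.36, 10.2, 0.961, 0.624, 2.61 and 0.571 FPKM. Libraries 1, 2 and 5 were the 3 highest for these 3 genes, as for Sgk1, and libraries 4 and 6 the 2 lowest. The order was taken from Sgk1, and the share of all genes that show it was not counted. Fkbp5, a chaperone partner of the glucocorticoid receptor, did not follow that order, with library 1 the lowest at 23.3 FPKM and library 2 the highest at 60.0 FPKM. Scnn1a, the alpha subunit of the epithelial sodium channel, also had library 1 lowest, at 25.8 FPKM, and library 5 highest, at 35.7 FPKM. Slc12a3 did not follow it either, since library 5 was its highest at 108 FPKM and library 1 was second lowest at 98.8 FPKM.

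**Figure D2:**
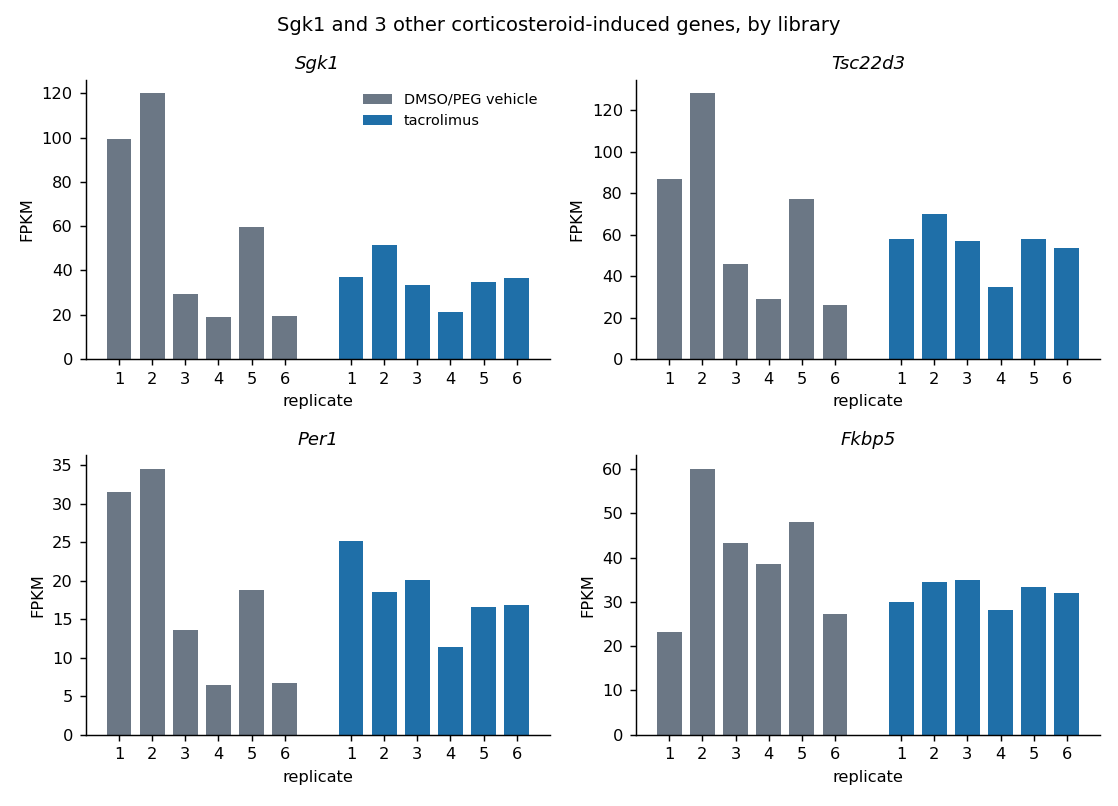
Sgk1, Tsc22d3, Per1 and Fkbp5 in the 12 libraries of the tacrolimus table. Bars give FPKM by replicate number on axes starting at 0, vehicle in grey and tacrolimus in blue. The labels do not say whether a number shared by 2 groups pairs animals. Vehicle libraries 1, 2 and 5 are the highest of their group for Sgk1, Tsc22d3 and Per1 and not for Fkbp5.

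The order of the levels, which FPKM puts on a per-length basis, differed between the groups. With DMSO/PEG the means ran from Slc12a3 at 102 FPKM through Sgk1 at 57.9, Wnk1 at 34.2, Cul3 at 21.2, Nedd4l at 20.7, Oxsr1 at 15.4, Stk39 at 13.2 and Klhl3 at 7.08 to Wnk4 at 4.71. Cul3 and Nedd4l could not be separated by their spread, nor could Oxsr1 and Stk39, and Sgk1 overlapped all of its neighbours. With tacrolimus Slc12a3 was still first by its mean, 43.3 FPKM, but overlapped Sgk1 at 35.9 FPKM. Wnk1, at 19.1 FPKM, then stood below the means of Cul3 at 22.2 and Nedd4l at 21.6, with overlapping ranges. Klhl3, at 3.39 FPKM, then stood below Wnk4 at 4.65 FPKM, and the ranges of that pair did not overlap in either group.

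With cyclosporine A neither the cotransporter nor any of its regulators was called. On rescaled FPKM limma called 0 of the 9 genes. At an unadjusted p under 0.05 there was 1 gene, Sgk1, and voom on recovered fragments also called 0, with 3 genes at an unadjusted p under 0.05. Among all 13455 genes tested, limma called 0.609% and voom 2.09%, and 16.2% had an unadjusted p under 0.05 in limma and 16.1% in voom. The groups overlapped for each of the 9 genes, while 10.9% of all genes had groups that did not overlap.

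Slc12a3 was at 14.4, 13.6, 5.52 and 5.46 rescaled FPKM in the 4 saline libraries and at 11.5, 13.9, 18.9 and 4.44 rescaled FPKM in the 4 cyclosporine A libraries. Within each group some libraries were more than 2 times others, and the drug libraries ran from below the lowest saline library to above the highest. The log2 fold change was 0.27 (SE 0.42, 95% interval -0.68 to 1.22, limma adjusted p = 0.809). The interval leaves room for a fall of 0.68 on the log2 scale as well as for a rise. The lowest library, cyclosporine A replicate 4, had 260 Slc12a3 fragments and the table's highest mitochondrial share, 90.8%. With 1 library left out at a time the log2 fold change ran from 0.02, without cyclosporine A replicate 3, to 0.65, without cyclosporine A replicate 4, and it was 0.07 without either saline replicate 3 or saline replicate 4. Limma called none of these.

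Wnk1 was far steadier, at 7.42, 8.29, 6.47 and 5.56 rescaled FPKM with saline and 6.91, 6.64, 7.51 and 6.64 rescaled FPKM with cyclosporine A. All 4 cyclosporine A libraries lay inside the saline range. Its log2 fold change was 0.01 (SE 0.13, 95% interval -0.28 to 0.30, limma adjusted p = 0.983). Wnk4 was at 2.28, 3.59, 1.56 and 1.63 rescaled FPKM with saline and 2.48, 3.81, 2.78 and 3.27 rescaled FPKM with cyclosporine A, so all 4 drug libraries lay above 3 of the 4 saline libraries. Its log2 fold change was 0.35 (95% interval -0.10 to 0.81, limma adjusted p = 0.43).

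SPAK and OSR1 transcripts had higher means with the drug but were not called. Stk39 was at 4.74, 4.96, 6.26 and 5.03 rescaled FPKM with saline and 6.38, 5.42, 6.08 and 7.49 rescaled FPKM with cyclosporine A. Oxsr1 was at 3.64, 4.17, 4.47 and 3.05 with saline and 5.26, 5.04, 6.07 and 3.96 rescaled FPKM with cyclosporine A. For each gene the groups overlapped through a single high saline library or a single low drug library. The log2 fold changes were 0.23 for Stk39 (95% interval -0.06 to 0.52, limma adjusted p = 0.418) and 0.33 for Oxsr1 (95% interval -0.0063 to 0.66, limma adjusted p = 0.319).

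Klhl3 was low on the rescaled scale of the cyclosporine A table, at 0.649, 1.36, 0.433 and 0.566 rescaled FPKM with saline and 0.720, 0.847, 0.858 and 1.86 rescaled FPKM with cyclosporine A. These values rest on 19 to 78 fragments each. The groups overlapped, and the log2 fold change of 0.24 (95% interval -0.22 to 0.69, limma adjusted p = 0.614) is understated by the added 1, because the levels are about that size. Cul3 was at 6.71 to 8.43 rescaled FPKM with saline and 6.17 to 9.05 with cyclosporine A, a log2 fold change of -0.02 (95% interval -0.32 to 0.28). Its gene end differs between the tables, so its levels also rest on different lengths, 4271 and 4687 bases.

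Sgk1 was at 9.04, 9.03, 10.1 and 10.2 rescaled FPKM with saline and at 19.1, 15.5, 9.61 and 27.4 rescaled FPKM with cyclosporine A. The saline libraries were nearly level, 3 drug libraries stood above all of them, and the fourth lay among them. The log2 fold change was 0.75 (SE 0.25, 95% interval 0.19 to 1.30), with an unadjusted p of 0.0132 and a limma adjusted p of 0.181. Nedd4l was at 6.46 to 7.81 rescaled FPKM with saline and 6.24 to 8.34 with cyclosporine A, a log2 fold change of 0.01 (95% interval -0.25 to 0.27).

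**Figure D3:**
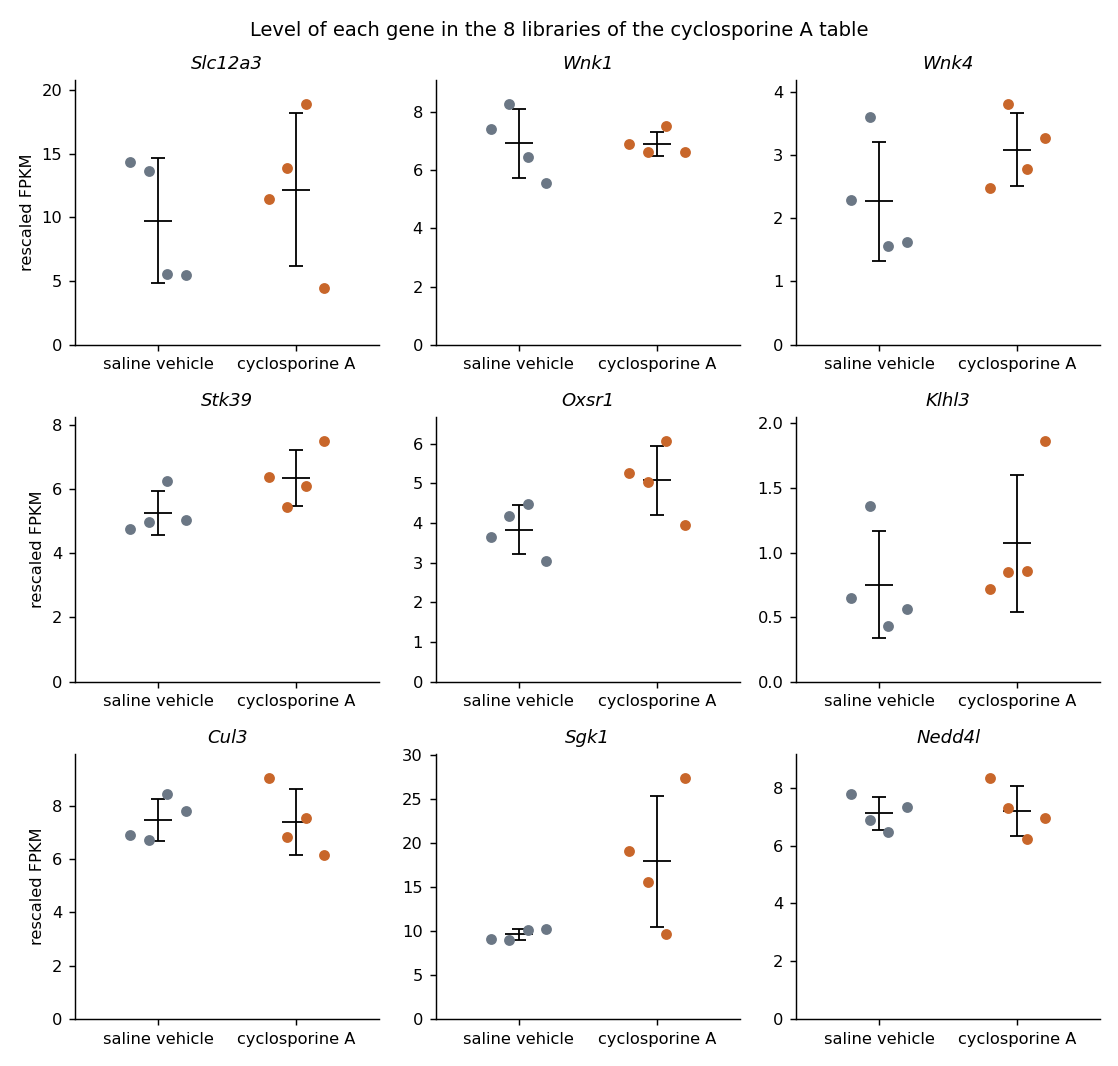
Level of the 9 genes in each library of the cyclosporine A table. Each panel has its own axis in rescaled FPKM starting at 0, points are single libraries (4 per group, saline grey, cyclosporine A orange), and bars give the mean and SD. The groups overlap for all 9 genes, and Sgk1 and Oxsr1 each have 3 of 4 drug libraries above every saline library.

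Values as deposited in the cyclosporine A table gave another picture. On that scale, which divides by all fragments including mitochondrial ones, all 9 genes had lower means with the drug and 6 were called lower: Wnk1, Wnk4, Stk39, Oxsr1, Cul3 and Nedd4l. The same scale called 80.9% of all genes tested lower, and its median gene had a log2 fold change of -0.89. Slc12a3 stood at that median, with a log2 fold change of -0.89 (limma adjusted p = 0.0683). Scaled to non-mitochondrial fragments, limma called 0 of the 9 genes and 0.87% of all genes, 2 of the 9 and 16.8% of all had an unadjusted p under 0.05, and the median gene stood at 0.07.

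The tacrolimus log2 fold change was then subtracted from that of cyclosporine A and the difference tested, over the 13392 genes tested in both tables. Called were 2 of the 9 genes, against 1.63% of all genes. Wnk1 differed by 0.82 on the log2 scale (SE 0.14, 95% interval 0.51 to 1.12, adjusted p = 0.0162 from the limma estimates) and Klhl3 by 1.12 (SE 0.22, 95% interval 0.64 to 1.59, adjusted p = 0.029 from the limma estimates). Slc12a3 had the largest difference, 1.51, with a larger error (SE 0.44), and was not called (95% interval 0.54 to 2.48, adjusted p = 0.12 from the limma estimates). Without cyclosporine A replicate 4 it was 1.89 with an adjusted p of 0.0305 in limma. The Wnk1 call was lost without saline replicate 1, 3 or 4, and with deposited values in both tables, where 75.2% of all genes and 5 of the 9 were called, its difference reversed to -0.34. The Klhl3 call was lost without saline replicate 1, 3 or 4 or cyclosporine A replicate 1, with a pseudocount of 0.1 and with non-mitochondrial scaling. These last settings each called 1 of the 9 genes, against 1.39% and 1.71% of all genes.

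The other 6 genes were not called in that test. Sgk1 differed by 1.11 (95% interval 0.07 to 2.15), Stk39 by 0.42 (95% interval 0.12 to 0.73) and Oxsr1 by 0.41 (95% interval 0.07 to 0.75), each with an unadjusted p under 0.05, a mark that 16% of all genes reached. Wnk4, Cul3 and Nedd4l differed by 0.37, -0.08 and -0.05, with intervals that include 0.

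**Figure D4:**
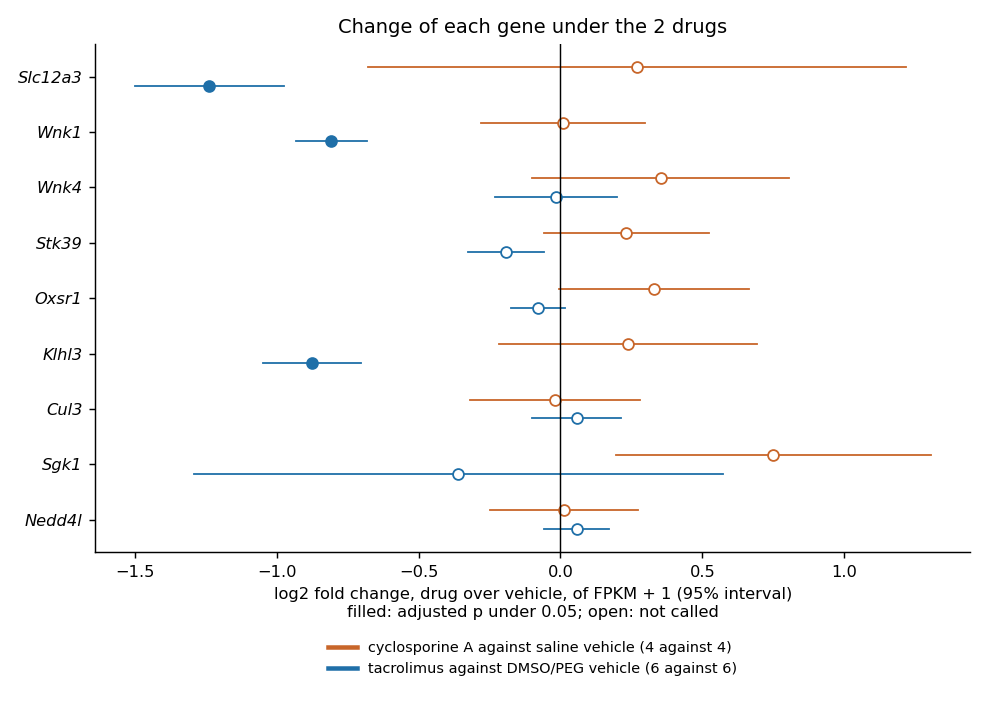
Log2 fold change of FPKM + 1 for the 9 genes, cyclosporine A against saline in orange and tacrolimus against DMSO/PEG in blue, with 95% intervals. Filled points are called at an adjusted p under 0.05. The blue intervals of Slc12a3, Wnk1 and Klhl3 lie wholly below 0, as does that of Stk39, whose point is open, and no orange point is filled.

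Slc12a3, Klhl3 and Wnk4 are also markers of the distal convoluted tubule, and most other markers of that segment fell with tacrolimus. Of 12 listed genes, Pvalb, the defining marker of the early segment in rodents, was listed at 0 in every library of both tables, and 11 were tested. In these 11, 8 were called lower, against 0.284% of all genes tested: Slc12a3, Klhl3, Calb1, the calcium buffer calbindin, Slc8a1, the sodium calcium exchanger, Egf, the precursor of epidermal growth factor, Trpm6 and Cnnm2, which handle magnesium, and Trpv5, the apical calcium channel. Calb1 had the largest log2 fold change, -3.81, and Cnnm2 the smallest of the 8, -0.59. Wnk4 and the transcription factors Emx1 and Sall3 were not called, at -0.02, -0.16 and -0.11.

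The median log2 fold change of the 11 genes was -0.85, and that of all genes tested was close to 0. The summed level of the list was 383 to 468 FPKM with DMSO/PEG and 109 to 139 FPKM with tacrolimus (exact permutation test, 2-sided p = 0.00216, adjusted over 8 marker lists 0.0173, n = 6 each). Without Slc12a3, Klhl3 and Wnk4 it was 275 to 349 FPKM and 71.2 to 76.3 FPKM. The sum adds FPKM without weights, so its most abundant genes carry it. Slc12a3 alone had means of 102 and 43.3 FPKM, beside means of 422 and 125 FPKM for the whole list. None of the other 7 lists passed that test in the tacrolimus table, and the lowest adjusted p among them was 0.251, for the thick ascending limb, intercalated cell and endothelial lists (exact permutation test). The thick ascending limb sum was 2208 to 2710 FPKM with DMSO/PEG and 1794 to 2746 FPKM with tacrolimus. Fewer distal convoluted tubule cells and less RNA of these genes per cell cannot be told apart in bulk tissue.

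With cyclosporine A, 1 of the same 11 genes was called on rescaled FPKM, against 0.609% of all genes. This was Calb1, which was lower, with a log2 fold change of -1.85 (SE 0.26, limma adjusted p = 0.0251). The summed level of the list was 71.9 to 93.3 rescaled FPKM with saline and 37.3 to 47.9 with cyclosporine A (exact permutation test, 2-sided p = 0.0286, adjusted over 8 lists 0.114, n = 4 each), the smallest p this design allows. Without Slc12a3, Klhl3 and Wnk4 it was 54.8 to 80.4 and 20.8 to 35.5 rescaled FPKM. Calb1 alone accounted for a mean of 55.7 rescaled FPKM of the saline sum. The thick ascending limb list also had groups that did not overlap, at 341 to 606 against 152 to 275 rescaled FPKM (exact permutation p = 0.0286, adjusted 0.114). Neither it nor the distal convoluted tubule list passed after adjustment. The endothelial sum, over 3 genes, had the lowest ratio of the 8 lists, with means of 16.4 and 4.97 rescaled FPKM, but its groups overlapped and it did not pass (exact permutation p = 0.0571, adjusted 0.152). The lists for principal, intercalated, proximal tubule, podocyte and leukocyte cells had adjusted p values of 0.549 or above in that table. The part of cell composition in the values of the 9 genes was not tested.

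**Figure D5:**
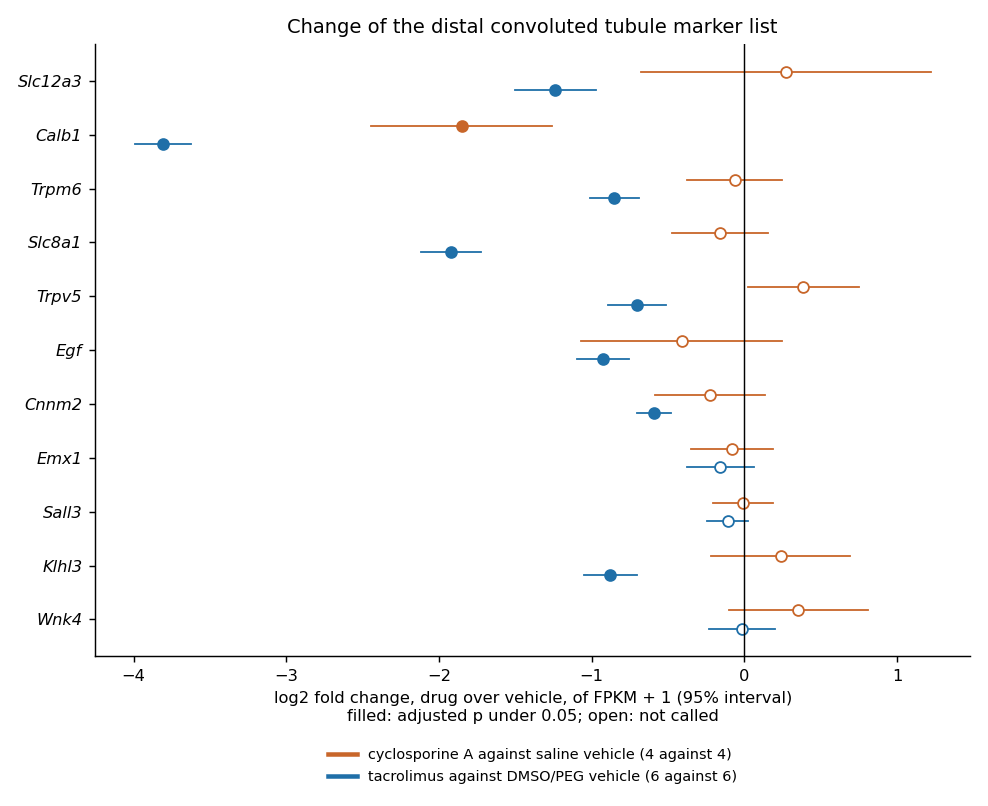
Log2 fold change of FPKM + 1 for the 11 tested genes of the distal convoluted tubule list, cyclosporine A in orange and tacrolimus in blue, with 95% intervals. Filled points are called at an adjusted p under 0.05. With tacrolimus 8 genes are filled and below 0, from -0.59 for Cnnm2 to -3.81 for Calb1, and with cyclosporine A the single filled point is Calb1.

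The genes whose pattern over the 12 libraries was most like that of Slc12a3 were ranked by the root mean square difference in log2(FPKM + 1), each gene centred on its own mean, among 12888 genes with a mean of at least 1 FPKM. The distance includes the step between the groups, so with tacrolimus it largely ranks genes by a fall of similar size. The 5 nearest in the tacrolimus table were Capn6 (0.21), Egf (0.23), Fasn (0.28), LOC108348190 (0.28) and Trpm6 (0.30). Klhl3 was 6th and Wnk1 8th, and Stk39 was 344th. In the cyclosporine A table, over 8 libraries and 9777 genes, the 5 nearest were G6pc (0.16), Galnt3 (0.17), Paqr7 (0.21), Acsm1 (0.22) and AC096263.1 (0.23). There Oxsr1 was 862nd, the nearest of the regulators ranked, and Wnk1 was 1066th. Klhl3 had a mean under 1 rescaled FPKM and was not ranked. No gene was among the 5 nearest in both tables, and the libraries of each table share their depth scaling.

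The wider pathway was read from 7 lists with 40 genes. With tacrolimus 39 were tested and limma called 0, with 3 at an unadjusted p under 0.05, a mark that 8.58% of all genes reached. Voom called 1, against 0.781% of all genes. This was Scnn1a, which was at 31.5 FPKM with DMSO/PEG and 24.7 FPKM with tacrolimus (log2 fold change -0.33, SE 0.07, limma adjusted p = 0.106). The other 2 of those 3 genes were Kcnj10, a basolateral potassium channel of this segment, at -0.25 (limma adjusted p = 0.446), and Ppp1r1a, an inhibitor of a phosphatase that dephosphorylates the cotransporter, at -0.21 (limma adjusted p = 0.419). Of the list for other WNK kinases and their MO25 scaffolds 3 of 4 genes were tested, and limma called 0 and had 0 at an unadjusted p under 0.05. The same held in limma for 6 ligase parts and for 9 genes of SGK1 activation and corticosteroid reception, while voom had 1 gene at an unadjusted p under 0.05 in each of those 2 lists, a mark that 12.6% of all genes reached in voom.

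With cyclosporine A on rescaled FPKM 38 of the 40 genes were tested, limma called 0 and 10 had an unadjusted p under 0.05, while 16.2% of all genes did. Voom called 1, against 2.09% of all genes. This was Slc12a1, the loop-diuretic-sensitive cotransporter of the thick ascending limb and closest relative of Slc12a3 in this tubule. Slc12a1 was at a mean of 60.8 rescaled FPKM with saline and 31.3 with cyclosporine A (log2 fold change -0.95, SE 0.18, limma adjusted p = 0.0511). Scaled to non-mitochondrial fragments, limma called it lower (log2 fold change -0.87, adjusted p = 0.0419), where 0.87% of all genes were called. Its change differed from that with tacrolimus by -0.83 (adjusted p = 0.0482 from the limma estimates), in a test that called 1.63% of all genes. The calcineurin subunit genes Ppp3ca and Ppp3cb were at -0.36 and -0.27 (limma adjusted p = 0.241 and 0.277).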

How the data were processed

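Bulk RNA sequencing of whole kidney gave 2 tables of FPKM values, deposited by the authors, 1 per drug with its vehicle. The submitters' processing notes name HISAT2 and the rn6 build. The counting program, annotation release and strand setting are not given in the sources used here. Dividing the FPKM steps out gave whole fragments (within 0.01): with the listed length for 100% of tacrolimus values and 74.6% of cyclosporine A values, the rest with a shorter length, as for 5 of the 9 genes (Wnk1, Wnk4, Stk39, Sgk1, Nedd4l). Cyclosporine A values follow all assigned fragments, so they were rescaled by median-of-ratios size factors computed on the deposited FPKM. Tacrolimus values already follow such factors.

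A gene was tested if it reached 10 fragments, at the median library size, in no fewer libraries than the smaller group has, with 15 in total. limma 3.58.1 (R 4.3.3; lmFit, eBayes with trend) was run on log2(FPKM + 1), and the difference between drugs used Satterthwaite degrees of freedom. The method was tested on simulated data. Summed marker levels were compared by exact 2-sided permutation tests (scipy 1.17.1). Alternatives were deposited values, scaling to non-mitochondrial fragments, a pseudocount of 0.1, no filter, a replicate block, voom with quality weights and leaving out each library.

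The 9 genes and the 7 pathway and 8 marker lists were chosen with earlier results of these data known, so their calls are no independent evidence. From each list the called genes were named first, then those with the smallest p. A symbol on several identifiers was taken from the identifier that both tables give it, and Pecam1 was not matched. Some pathway genes are counted but not reported here by name. Fold changes on log2(FPKM + 1) understate changes of genes with low values.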

Additional observations from a re-analysis of the deposited data

Results flagged for a closer look

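In 4 of 36 groups of libraries tested (9 genes in 4 groups), the highest or lowest library stood apart from the rest by Dixon's criterion, which chance alone meets in about 1 of 20 groups. Klhl3 was 1.86 rescaled FPKM in cyclosporine A replicate 4, on 35 fragments, with the next library at 0.858. Cul3 was 27.5 FPKM in tacrolimus replicate 6, with the next at 22.3 FPKM. Nedd4l was 22.8 FPKM in DMSO/PEG replicate 5, with the next at 20.9 FPKM, and 19.0 FPKM in tacrolimus replicate 4, with the next at 21.6 FPKM. In the comparison that holds the library, Klhl3 (cyclosporine A), Cul3 and Nedd4l (tacrolimus) were not called by limma with it or without it. Without that library Klhl3 moved from a log2 fold change of 0.24 to 0.072, and Cul3 from 0.06 to -0.0020. Nedd4l moved from 0.058 to 0.085 without DMSO/PEG replicate 5 and to 0.092 without tacrolimus replicate 4.

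The change differed between the drugs for Wnk1, by 0.82 on the log2 scale, and for Klhl3, by 1.12 (limma adjusted p = 0.0162 and 0.029). Drug, vehicle and table cannot be told apart in these differences.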

How the results depend on the processing

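Slc12a3, Wnk1 and Klhl3 stayed called lower with tacrolimus in each of 17 alternatives, with log2 fold changes of -1.31 to -1.14, -0.84 to -0.78 and -1.04 to -0.84 and limma adjusted p values of at most 0.005, 6.26e-04 and 0.0041. Voom called 121 genes against 47. With cyclosporine A, genes called numbered 10911 on deposited FPKM (26 higher, 10885 lower, against 44 higher and 38 lower), 117 scaled to non-mitochondrial fragments (75 higher, 42 lower), 1 without the filter, 281 with voom and 1 to 136 with a library left out. Deposited FPKM called 6 of the 9 genes and gave log2 fold changes of -0.89 for Slc12a3, -1.14 for Wnk1, -0.59 for Wnk4, -0.90 for Stk39, -0.74 for Oxsr1, -0.37 for Klhl3, -1.18 for Cul3, -0.49 for Sgk1 and -1.15 for Nedd4l.

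Small values changed sign with a library left out: Wnk1 (-0.079 to 0.088), Cul3 (-0.11 to 0.053) and Nedd4l (-0.055 to 0.067) with cyclosporine A, and Wnk4 (-0.059 to 0.046) and Cul3 (-0.0020 to 0.089) with tacrolimus. Cul3 was 0.069 with cyclosporine A scaled to non-mitochondrial fragments. On that scale Slc12a3 was 0.38, Wnk4 0.55, Oxsr1 0.47 and Klhl3 0.49. Voom gave 0.60, 0.64, 0.51 and 0.50 in the same order, and none was called in either.

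The difference between the drugs was called for 10068 genes on deposited FPKM, with 5 of the 9 genes, and reversed to -0.34 for Wnk1, -0.57 for Wnk4, -0.71 for Stk39, -0.66 for Oxsr1 and -0.13 for Sgk1, while Slc12a3 stood at 0.34 (not called) and Klhl3 at 0.50 (called). On that scale Cul3 stood at -1.24 and Nedd4l at -1.21, both called. Non-mitochondrial scaling called 1 of the 9 and 1.71% of all genes and gave 0.0082 for Cul3 and 0.042 for Nedd4l, and a pseudocount of 0.1 called 1 of the 9 and 1.39% of all. With a library left out, 27 to 267 genes and 0 to 3 of the 9 were called, Slc12a3 ran from 1.26 to 1.89 and Nedd4l from -0.11 to 0.0090.

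Deviations of same-numbered libraries were weakly correlated (-0.15 to 0.21, best with its own number in 1 of 4 numbers and 2 of 6). With so few numbers this cannot exclude pairing, and the labels name none, so the main fits left the numbers out. A replicate block called 6 genes with cyclosporine A, 44 with tacrolimus and 181 for the difference, and 0, 3 and 2 of the 9 genes. The causes of these shifts were not tested. Klhl3 values in the cyclosporine A table rest on 19 to 78 fragments each.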
